A study of Homo sapiens with 9 samples.

Results

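The comparison described here is that of suspended MDA-MB-453 cells treated with AT-0174 against suspended MDA-MB-453 cells treated with vehicle, which takes 6 of the 9 RNA-seq libraries of the study, 3 in each group. They were chosen by their sample labels alone. MDA-MB-453 is an established human breast cancer cell line that the labels class as triple-negative, of wild-type genotype. Cells of both groups were held for 48 hours in DMEM with 10% serum on plates coated with poly-HEMA, a polymer that keeps cells from attaching, and received either the dual TDO2 and IDO1 inhibitor AT-0174 at 10 µmol/L or the DMSO vehicle. The remaining 3 libraries, of attached cells with vehicle, entered the filter on low counts, the scaling and the shared estimate of the spread. They were not part of the comparison, and their levels are given for reference. No attached cells were treated, and the 3 replicates per group, labelled as biological, come from a single cell line at a single dose and time.

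TDO2 and IDO1 carry out the first step of the kynurenine pathway, in which tryptophan is opened to formyl-kynurenine, and kynurenine can activate the aryl hydrocarbon receptor AHR, a transcription factor that induces cytochrome P450 genes. NRF2, encoded by *NFE2L2*, is a transcription factor that the adaptor KEAP1 normally sends for degradation. When electrophiles or oxidants modify KEAP1, NRF2 accumulates and induces genes for glutathione synthesis, thioredoxin reduction, NADPH supply, heme breakdown and iron storage, quinone reduction and drug conjugation. Interferons induce a separate set of antiviral genes through STAT proteins and IRF9.

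The vehicle libraries held 38426208, 43366137 and 42970982 estimated counts and the AT-0174 libraries 48019126, 42084202 and 44064734, so that a gene with no counts in a library could be present at up to between 0.0625 and 0.0781 CPM (counts scaled to library size), the limit from counting error alone. Genes of the mitochondrial genome took 4.05% to 4.34% of the counts with vehicle and 3.73% to 5.51% with AT-0174. The luminal markers *KRT8*, *KRT18*, *KRT19*, *FOXA1*, *GATA3* and *SPDEF* each exceeded 400 CPM in the 6 libraries, and no difference passed for the 8 luminal markers (lowest adjusted p = 0.498). *PIP*, another luminal marker, was low, at 3.8 to 4.94 CPM. The basal keratins *KRT5*, *KRT14* and *KRT17* had at most 4 counts in any of the 6 libraries, as did *COL1A2*, *COL3A1* and *DCN* of fibroblasts and *PTPRC* and *CD3E* of leukocytes. *COL1A1*, by contrast, lay between 108 and 116 CPM in all 6, and *TP63*, the remaining basal marker, between 5.16 and 6.04 CPM. The summed level of the 4 leukocyte markers was 1.24 to 1.48 CPM with vehicle and 1.42 to 2.32 CPM with AT-0174, nearly all of it *CD68*, and its part in the results below was not tested.

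Of 15528 genes that passed the filter on low counts, 121 differed between AT-0174 and vehicle at an adjusted p under 0.05, which is 0.779% of the genes tested, 81 of them higher (0.522%) and 40 lower (0.258%). Genes were tested with edgeR's quasi-likelihood test, adjusted by the method of Benjamini and Hochberg, and changes are log2 fold changes of AT-0174 over vehicle ± their standard error, with n = 3 libraries per group. In each of the 121 genes, all 3 AT-0174 libraries lay on the same side of all 3 vehicle libraries. Among all genes tested, 7.75% lay wholly higher and 7.66% wholly lower. The changes were small, with 95 of the 121 genes moving less than 1.5-fold, and the median log2 fold change was 0.29 among the rises and −0.37 among the falls. Of the 9 genes that moved at least 2-fold, all fell: *IFI6*, *OAS2*, *OASL*, *IFIT1*, *IFIT2*, *IFITM3*, *RANBP3L*, *FHL2* and *PCDHA13*. In RNA from whole cultures, a change within each cell and a change in the share of cells that express a gene cannot be told apart. With a single library left out, between 63 (without AT-0174 replicate 1) and 86 (without vehicle replicate 2) genes differed, and 52 of the 121 genes passed in all 6 such fits.

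**Figure D1:**
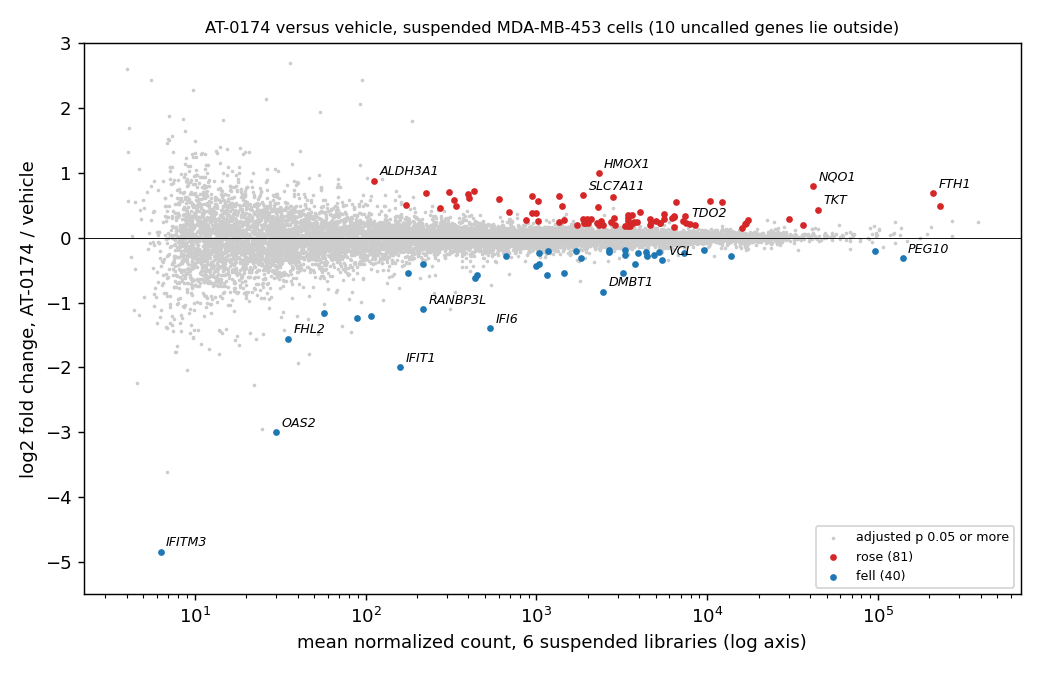
Log2 fold change of AT-0174 over vehicle (vertical axis) against the mean normalized count of the 6 suspended libraries (horizontal log axis) for the 15528 genes tested except 10 that were not called and lie outside the axes, with 81 rises in red and 40 falls in blue. The rises reach abundant genes such as *FTH1* and *TKT* and stay at or under a log2 fold change of 1.00, whereas the larger falls, such as *OAS2* at −3.00, are of less abundant genes.

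The largest related group among the rises consisted of genes linked to NRF2. In 8 lists of such genes, grouped by function, 96 of 114 distinct members passed the filter, 31 rose (32.3%, against 0.522% of all genes) and 1 fell, and their median log2 fold change was 0.12 against 0.0013 for all genes. These 31 genes made up 38.3% of the 81 rises. The lists were drawn up with earlier results of these data known, so that the counts describe the group and are no independent evidence of its direction.

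**Figure D2:**
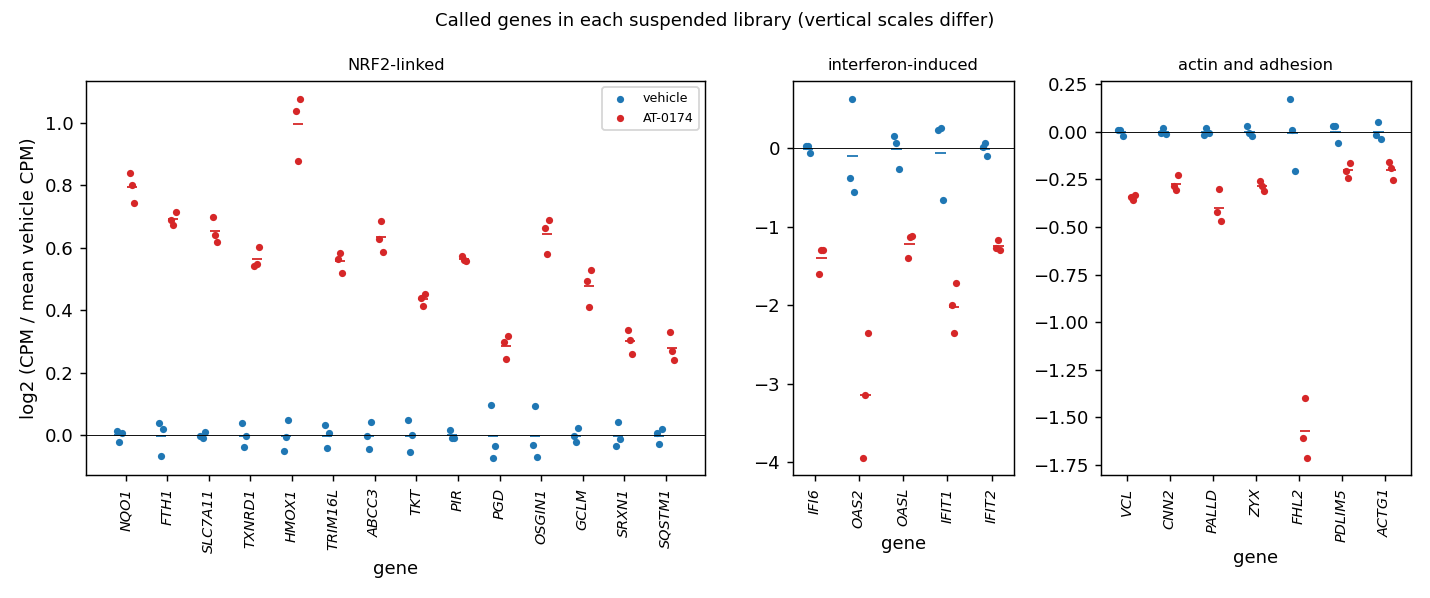
Log2 of the CPM of each suspended library over the mean vehicle CPM (vertical axis, with a scale for each panel) for 14 NRF2-linked, 5 interferon-induced and 7 actin and adhesion genes (horizontal axes), with a point per library and a bar at the mean of 3. The AT-0174 points lie above all vehicle points in the first panel and below them in the others, and the spread among vehicle libraries is widest for *OAS2* and *IFIT1*.

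No difference was detected for the central regulators of the pathway. *NFE2L2* measured 110.0, 109.8 and 112 CPM with vehicle and 111, 105 and 112 CPM with AT-0174 (log2 fold change −0.014 ± 0.038, adjusted p = 0.96), and *KEAP1* measured 138, 137 and 137 CPM with vehicle and 139.9, 138 and 133 CPM with AT-0174 (0.0017 ± 0.031, adjusted p = 1.00). The groups overlapped for both genes. *BACH1*, a repressor that competes with NRF2 for its sites, likewise overlapped (−0.0026 ± 0.066, adjusted p = 1.00). Of the 11 tested regulators, *SQSTM1* rose, from 380.0, 371 and 383 to 475, 455 and 446 CPM (0.28 ± 0.032, adjusted p = 7.3e-04). *SQSTM1* encodes p62, an autophagy receptor that binds KEAP1 and is itself induced by NRF2. It passed in 13 of 14 alternative fits.

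In heme and iron handling, 7 of 15 tested members rose and none fell. *HMOX1* (chr22:35380361-35394214, GRCh38, as are all positions), the heme oxygenase that opens the heme ring, measured 35.9, 37.0 and 38.5 CPM with vehicle and 76.2, 68.3 and 78.3 CPM with AT-0174. The lowest treated library, at 68.3 CPM, lay far above the highest vehicle library, at 38.5 CPM, and the gene had the largest change among the rises (log2 fold change 1.00 ± 0.062, adjusted p = 2.5e-06). *BLVRA*, which reduces the biliverdin that this reaction forms, did not pass (−0.022 ± 0.052, adjusted p = 0.95). *BLVRB*, which reduces flavins and another form of biliverdin, rose from 152, 165 and 156 to 198, 191 and 174 CPM (0.25 ± 0.048, adjusted p = 0.029). *FTH1* (chr11:61959718-61967634), the heavy chain of the iron store ferritin and among the most abundant transcripts of these cells, measured 3985, 3702 and 3931 CPM with vehicle and 6248, 6167 and 6354 CPM with AT-0174 (0.69 ± 0.033, adjusted p = 3.2e-07). The light chain did not follow it past the threshold: *FTL* had a log2 fold change of 0.036 ± 0.031, adjusted p = 0.81. Genes of heme synthesis and transport were also higher, namely *ALAS1*, the first enzyme of heme synthesis (0.28 ± 0.047, adjusted p = 0.012), *FECH*, the last (0.20 ± 0.040, adjusted p = 0.041), the porphyrin carrier *ABCB6* (0.24 ± 0.034, adjusted p = 0.0037) and the heme transporter *SLC48A1* (0.37 ± 0.037, adjusted p = 2.1e-04). The transferrin receptor *TFRC* (0.083 ± 0.031, adjusted p = 0.40) and the iron exporter *SLC40A1* (0.10 ± 0.045, adjusted p = 0.54) did not pass. With a library left out, *ALAS1* and *BLVRB* passed in 2 of 6 fits and *FECH* in none. A processed pseudogene of ferritin, *FTH1P10*, rose as well (0.70 ± 0.098, adjusted p = 0.0037), and its reads cannot be told from those of *FTH1* with certainty.

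In glutathione metabolism, 4 of 17 tested members rose and none fell, and these 4 include the supply of cysteine and both subunits of the rate-limiting enzyme. *SLC7A11* (chr4:138164097-138242349), the cystine importer, measured 35.0, 34.9 and 35.3 CPM with vehicle and 56.9, 54.7 and 53.9 CPM with AT-0174 (0.65 ± 0.038, adjusted p = 2.5e-06). *GCLM* (chr1:93885199-93909456), the regulatory subunit of glutamate-cysteine ligase, measured 46.3, 45.7 and 47.2 CPM with vehicle and 65.3, 61.7 and 66.9 CPM with AT-0174 (0.48 ± 0.043, adjusted p = 7.4e-05). Its catalytic partner *GCLC* measured 64.3, 59.9 and 60.6 CPM with vehicle and 75.9, 75.0 and 76.4 CPM with AT-0174 (0.30 ± 0.042, adjusted p = 0.0035). For each of these genes the groups stood apart. *MGST1*, a microsomal glutathione transferase, rose too (0.29 ± 0.036, adjusted p = 0.0017). *GCLM* passed in all 14 alternative fits. *SLC7A11*, *GCLC* and *MGST1* each passed in 13 of them, with an adjusted p of up to 0.14, 0.31 and 0.094. The second enzyme of the synthesis, *GSS* (0.033 ± 0.031, adjusted p = 0.84), glutathione reductase *GSR* (0.045 ± 0.035, adjusted p = 0.78) and the peroxidase *GPX4* (−0.064 ± 0.032, adjusted p = 0.59) did not pass.

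The thioredoxin system gave 4 rises and 1 fall among 12 tested members. *TXNRD1* (chr12:104215779-104350307), the cytosolic thioredoxin reductase, measured 206, 196 and 201 CPM with vehicle and 293, 294 and 305 CPM with AT-0174 (0.56 ± 0.034, adjusted p = 2.5e-06). Its substrate *TXN* (0.24 ± 0.045, adjusted p = 0.026), the peroxiredoxin *PRDX1* (0.22 ± 0.038, adjusted p = 0.019) and *SRXN1*, which repairs oxidized peroxiredoxins (0.30 ± 0.036, adjusted p = 0.0012), rose less. *TXNIP*, which binds and blocks thioredoxin, fell from 181, 188 and 204 to 161, 164 and 163 CPM (−0.23 ± 0.042, adjusted p = 0.024). The mitochondrial counterparts *TXN2* (0.018 ± 0.040, adjusted p = 0.95), *TXNRD2* (−0.056 ± 0.053, adjusted p = 0.83) and *PRDX3* (−0.062 ± 0.069, adjusted p = 0.86) did not pass. *TXN* and *PRDX1* passed in none of the 6 fits with a library left out, and *TXNIP* in 1.

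Sequences upstream of the start of transcription are shown for *TXNRD1* and *GCLM* because both genes rose and their promoters carry the core of the antioxidant response element, the site to which NRF2 binds with a small MAF protein. The letters TGACNNNGC were searched on both strands, from 250 bases before to 50 after each start in RefSeq (GRCh38.p14), and matches are in capitals.
*TXNRD1* (chr12:104286782-104287081, plus strand): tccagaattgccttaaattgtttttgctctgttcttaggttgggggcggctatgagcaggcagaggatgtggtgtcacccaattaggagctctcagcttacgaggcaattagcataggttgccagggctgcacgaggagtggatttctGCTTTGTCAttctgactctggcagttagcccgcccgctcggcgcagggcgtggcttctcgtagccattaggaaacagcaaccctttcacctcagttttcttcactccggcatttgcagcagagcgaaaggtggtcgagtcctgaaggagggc
*GCLM* (chr1:93909381-93909680, minus strand): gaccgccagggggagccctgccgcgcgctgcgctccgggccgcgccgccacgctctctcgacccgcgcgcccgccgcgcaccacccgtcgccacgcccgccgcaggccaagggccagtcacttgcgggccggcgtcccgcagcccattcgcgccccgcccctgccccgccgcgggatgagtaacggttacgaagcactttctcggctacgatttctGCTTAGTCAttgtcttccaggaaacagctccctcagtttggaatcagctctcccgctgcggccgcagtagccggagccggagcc
Both promoters were chosen after the changes and matches were seen. The match begins 102 bases before this start of *TXNRD1* and 34 bases before that of *GCLM*, both on the opposite strand, and another start of *TXNRD1*, at chr12:104215529-104215828, held 2 matches. A promoter was given for 23 of the 31 NRF2-linked genes that rose, and 8 of these held a match (34.8%), against 19.3% of all genes tested and 16.1% of all genes in the table. Counted by promoter, 9 of 30 held a match, against 13.3% of all promoters. Over all 62 rises with a promoter the share was 21.0%. The window of *NQO1* held no match to these letters. A match is a description of the letters and does not show binding.

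NADPH, which feeds both systems, is made by the pentose phosphate pathway, and 4 of 10 tested members of that list rose. *PGD*, which makes NADPH in the oxidative branch, rose from 701, 624 and 641 to 806, 776 and 816 CPM (0.29 ± 0.041, adjusted p = 0.0045). It passed in 13 of 14 alternative fits, with an adjusted p of up to 0.24. Both enzymes of the non-oxidative branch that shuttle carbon between sugars rose: *TKT* measured 946, 880.3 and 916 CPM with vehicle and 1239.9, 1218 and 1251 CPM with AT-0174 (0.44 ± 0.031, adjusted p = 9.0e-06), and *TALDO1* measured 384, 373 and 371 CPM with vehicle and 447, 439 and 431 CPM with AT-0174 (0.22 ± 0.028, adjusted p = 0.0018). The lactonase *PGLS* of the oxidative branch (0.053 ± 0.049, adjusted p = 0.83) and the sugar isomerases *RPIA* (−0.068 ± 0.064, adjusted p = 0.84) and *RPE* (0.12 ± 0.035, adjusted p = 0.18) did not pass. *IDH1*, which makes NADPH outside this pathway, did not pass either (0.11 ± 0.035, adjusted p = 0.27), and *ME1* was too low to be tested.

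Among genes that reduce quinones, aldehydes and ketones, 4 of 13 tested members rose, with *NQO1* the strongest call of the whole comparison. *NQO1* (chr16:69706996-69726668), a quinone reductase, measured 743, 726 and 739.9 CPM with vehicle and 1317, 1282 and 1231 CPM with AT-0174 (0.79 ± 0.033, adjusted p = 1.1e-07). The lowest treated library was 1231 CPM and the highest vehicle library 743 CPM. *ALDH3A1*, an aldehyde dehydrogenase, was low, at 1.71, 1.99 and 2.00 CPM with vehicle and 3.60, 3.92 and 2.99 CPM with AT-0174 (0.88 ± 0.16, adjusted p = 0.022), and passed in 1 of 6 fits with a library left out. *AKR1C2*, an aldo-keto reductase, measured 6.07, 4.85 and 5.92 CPM with vehicle and 9.81, 8.10 and 9.63 CPM with AT-0174 (0.71 ± 0.12, adjusted p = 0.017), and passed in 2 of those 6. Its reads may be shared with *AKR1C1* (0.79 ± 0.26, adjusted p = 0.31) and *AKR1C3* (0.23 ± 0.17, adjusted p = 0.76), which are close paralogs. *EPHX1*, an epoxide hydrolase, rose from 137, 129 and 141 to 172, 163 and 179.7 CPM (0.34 ± 0.046, adjusted p = 0.0029).

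In conjugation and efflux, all 11 tested members had positive values and 3 rose. *ABCC3* (chr17:50634777-50692253), an exporter of conjugated compounds, measured 52.97, 51.5 and 54.6 CPM with vehicle and 82.0, 85.4 and 79.6 CPM with AT-0174 (0.63 ± 0.044, adjusted p = 7.5e-06). *UGDH*, which makes the glucuronic acid donor, measured 46.0, 43.96 and 43.2 CPM with vehicle and 52.1, 50.3 and 52.9 CPM with AT-0174 (0.22 ± 0.040, adjusted p = 0.022), and passed in 2 of 6 fits with a library left out. The glucuronosyltransferase *UGT1A1* measured 7.21, 8.002 and 8.19 CPM with vehicle and 13.0, 13.0 and 12.6 CPM with AT-0174 (0.72 ± 0.083, adjusted p = 7.7e-04), and *UGT1A6*, listed here with the AHR targets, measured 240.0, 227 and 244 CPM with vehicle and 345, 342 and 357 CPM with AT-0174 (0.55 ± 0.037, adjusted p = 5.4e-06). The UGT1A genes share all exons but the first, so that the division of reads between them is uncertain. *ABCC1* (0.089 ± 0.037, adjusted p = 0.48), *ABCC2* (0.25 ± 0.18, adjusted p = 0.74) and *ABCC5* (0.11 ± 0.036, adjusted p = 0.26) did not pass.

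Of 7 further genes linked to NRF2, 4 rose. *PIR*, an iron-binding nuclear protein, measured 19.999, 19.7 and 19.6 CPM with vehicle and 29.4, 29.2 and 29.1 CPM with AT-0174 (0.56 ± 0.040, adjusted p = 9.0e-06). *OSGIN1*, a growth inhibitor induced by oxidative stress, measured 17.4, 19.0 and 17.0 CPM with vehicle and 28.1, 26.6 and 28.7 CPM with AT-0174 (0.64 ± 0.057, adjusted p = 6.6e-05). The libraries within each group lay close together for both genes, with standard deviations of 0.197 CPM (vehicle) and 0.153 CPM (AT-0174) for *PIR*. *TRIM16* (0.34 ± 0.038, adjusted p = 6.8e-04) and its partial copy *TRIM16L* (0.56 ± 0.033, adjusted p = 2.5e-06) rose together with *FBXW10* (0.59 ± 0.10, adjusted p = 0.021), which lies beside *TRIM16L*, and reads of this family may be shared. *FBXW10* passed in 1 of 6 fits with a library left out.

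The target of the inhibitor was itself higher. *TDO2* (chr4:155854738-155920406) measured 176, 168 and 157 CPM with vehicle and 201, 191 and 196 CPM with AT-0174 (0.23 ± 0.041, adjusted p = 0.022), a 1.17-fold rise. The highest vehicle library, at 176 CPM, lay below the lowest treated library, at 191 CPM. The call passed in 2 of 6 fits with a library left out, and the adjusted p was as high as 0.095 over the alternatives. In attached cells, *TDO2* measured 118, 114 and 112 CPM. *IDO1* and *IDO2* had at most 1 count in any suspended library, too few to tell from none. The next enzymes of the pathway did not pass: the formamidase *AFMID* had a log2 fold change of −0.0029 ± 0.075, adjusted p = 1.00, the hydroxylase *KMO* one of 0.10 ± 0.079, adjusted p = 0.78, and the hydrolase *KYNU*, at under 1 CPM in every library, one of −0.022 ± 0.26, adjusted p = 0.99. Of 18 genes of the kynurenine pathway and NAD synthesis, 13 were tested, *TDO2* rose, none fell, and the median was 0.030. *QPRT* (0.063 ± 0.051, adjusted p = 0.80) and *NAMPT* (0.030 ± 0.040, adjusted p = 0.90), of the routes from kynurenine and from nicotinamide to NAD, did not pass.

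The listed members of AHR and its targets did not move together. *CYP1A1* measured 5.09, 4.92 and 5.03 CPM with vehicle and 5.26, 5.47 and 6.69 CPM with AT-0174 (0.21 ± 0.13, adjusted p = 0.71), and *CYP1B1* measured 115, 114 and 117 CPM with vehicle and 133, 119.7 and 132 CPM with AT-0174 (0.16 ± 0.044, adjusted p = 0.17). Treated libraries lay above the vehicle libraries for both genes, but by margins that did not pass the test. *TIPARP*, another target, overlapped (0.025 ± 0.044, adjusted p = 0.92), as did the receptor's partner *ARNT* (0.042 ± 0.051, adjusted p = 0.88). *AHR* itself measured 10.5, 10.9 and 11.5 CPM with vehicle and 10.1, 9.72 and 10.3 CPM with AT-0174 (−0.13 ± 0.062, adjusted p = 0.59), lower without passing. *UGT1A6* was the only 1 of 10 tested members of this list to pass, and it also belongs to the drug-conjugating genes above. The median of the list was 0.034. The list is short and did not hold *NQO1*, *ALDH3A1* or *UGT1A1*, which rose and were counted with the NRF2-linked lists. Its count of calls therefore depends on how it was drawn up, and a part of AHR in those rises was not tested.

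**Figure D3:**
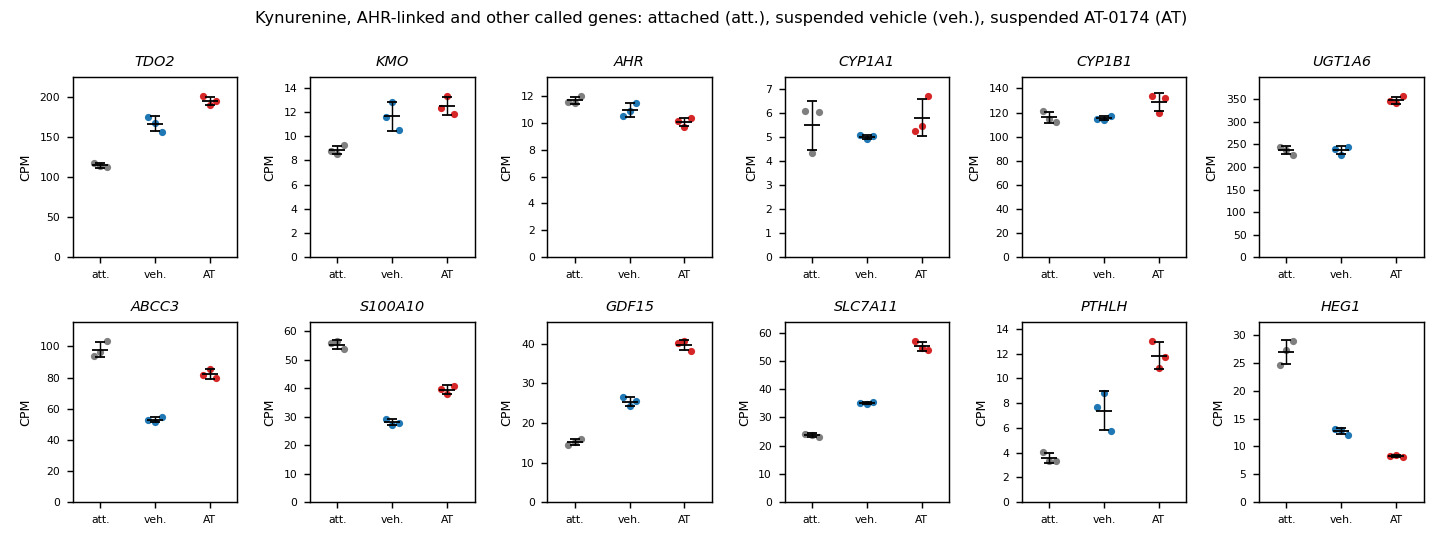
CPM (vertical axes, each from 0) of 12 genes in attached cells with vehicle (grey), suspended cells with vehicle (blue) and suspended cells with AT-0174 (red), with a point per library and the mean ± SD of 3. *TDO2*, *SLC7A11*, *GDF15* and *PTHLH* are highest with AT-0174 and lowest in attached cells, whereas *ABCC3* and *S100A10* with AT-0174 lie between the other groups, and *KMO*, *AHR* and *CYP1A1* did not pass the test.

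Genes induced by interferon made up most of the falls of at least 2-fold. Of 45 members of the list, 40 were tested, 6 fell (15% of those tested, against 0.258% of all genes) and none rose. The median log2 fold change was −0.59, 31 members lay wholly below the vehicle libraries (against 7.66% of all genes), and 39 of 40 had a negative value. *IFI6* (chr1:27666064-27672212), a mitochondrial antiviral protein, measured 19.1, 19.1 and 18.0 CPM with vehicle and 6.15, 7.62 and 7.64 CPM with AT-0174 (−1.39 ± 0.18, adjusted p = 0.0017). It was the most stable of the 6, passing in all 14 alternative fits. *IFIT1* (chr10:89392546-89406487), which binds viral RNA ends, measured 7.18, 7.32 and 3.87 CPM with vehicle and 1.53, 1.19 and 1.86 CPM with AT-0174 (−1.99 ± 0.39, adjusted p = 0.036). Vehicle replicate 3 was the lowest of its group but stood above every treated library, and the gene passed in 1 of 6 fits with a library left out.

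The other calls of the group were of lower genes. *OAS2* (chr12:112978395-113011723), an oligoadenylate synthetase that senses double-stranded RNA, measured 0.982, 1.97 and 0.865 CPM with vehicle and 0.0828, 0.143 and 0.249 CPM with AT-0174 (−3.00 ± 0.48, adjusted p = 0.010). *OASL*, a related protein, measured 4.03, 3.76 and 3.00 CPM with vehicle and 1.37, 1.65 and 1.65 CPM with AT-0174 (−1.21 ± 0.22, adjusted p = 0.024). Both stood apart between the groups, while *OASL* passed in only 1 of 6 fits with a library left out and *OAS2* in 4. *IFIT2*, a partner of *IFIT1*, measured 3.05, 3.15 and 2.80 CPM with vehicle and 1.24, 1.34 and 1.22 CPM with AT-0174 (−1.24 ± 0.25, adjusted p = 0.042) and passed in none of them. *IFITM3*, which blocks viral entry, had 7, 14 and 17 counts with vehicle and 0, 1 and 0 with AT-0174 (adjusted p = 0.043), and it too passed in none. Its treated libraries are at or below the limit of counting, so no fold change is read from them.

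Further members of the list had negative values without passing. *ISG15*, a ubiquitin-like protein, measured 18.4, 21.9 and 19.2 CPM with vehicle and 13.9, 12.9 and 13.6 CPM with AT-0174 (−0.56 ± 0.12, adjusted p = 0.065), and its conjugating enzyme *UBE2L6* measured 6.18, 6.14 and 6.01 CPM with vehicle and 4.04, 3.56 and 4.31 CPM with AT-0174 (−0.62 ± 0.14, adjusted p = 0.062). *HERC6* (−0.70 ± 0.15, adjusted p = 0.062) and *OAS3* (−0.32 ± 0.069, adjusted p = 0.062) were as close to the threshold. *IRF9*, the DNA-binding part of the factor that switches these genes on, measured 9.61, 11.4 and 9.79 CPM with vehicle and 4.16, 7.05 and 6.14 CPM with AT-0174 (−0.84 ± 0.21, adjusted p = 0.12). Its partner *STAT2* (−0.038 ± 0.051, adjusted p = 0.90) did not pass, nor did the abundant *BST2* (−0.025 ± 0.029, adjusted p = 0.88). *IFI44L* measured 0.0775, 0.340 and 0.159 CPM with vehicle and 0, 0 and 0 CPM with AT-0174, and its fitted change, which against a group at 0 depends on the prior count, is not given. Of the 15 genes of MHC class I presentation, which interferon also raises, none passed, 6 lay wholly lower (against 7.66% of all genes) and the median was −0.13, with *HLA-C* at −0.13 ± 0.032, adjusted p = 0.12 and *TAP1* at −0.23 ± 0.063, adjusted p = 0.17.

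**Figure D4:**
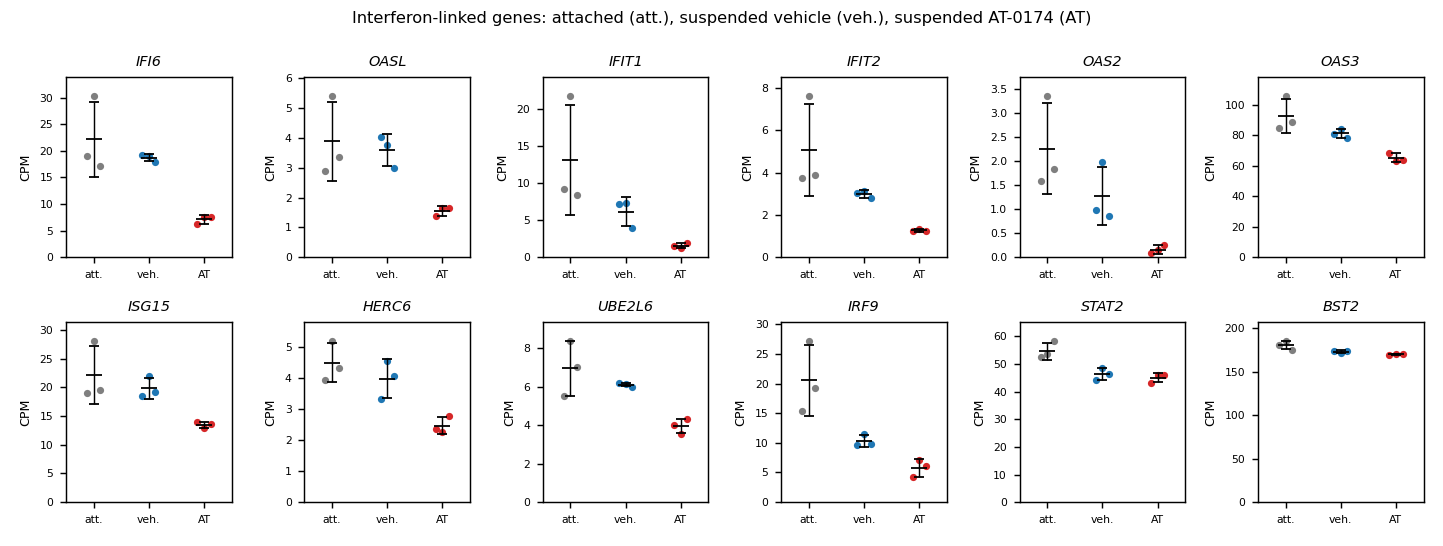
CPM (vertical axes, each from 0) of 12 interferon-linked genes in attached cells with vehicle (grey), suspended cells with vehicle (blue) and suspended cells with AT-0174 (red), with a point per library and the mean ± SD of 3. For *IFI6*, *OASL*, *IFIT1*, *IFIT2* and *OAS2* the 3 AT-0174 libraries are the lowest of the 9, 1 attached library stands above the rest, and *STAT2* and *BST2* differ little between the suspended groups.

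The level of these genes was not even among the libraries that did not receive AT-0174. Attached replicate 2 had 21.7 CPM of *IFIT1* against 9.18 and 8.42 in the other attached libraries, and 30.2 CPM of *IFI6* against 19.0 and 17.2. That library is not part of the comparison but enters the shared estimate of the spread. With only the 6 suspended libraries in the fit, 11 members of the list fell, and when a single suspended library was left out between 1 and 4 did.

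The promoters of *IFI6* and *IFIT1* are shown because both genes fell and carry repeats of the core of the interferon-stimulated response element, to which IRF9 binds together with STAT proteins. The letters GAAA, then any 2 bases, then GAAA again, were searched on both strands of the same RefSeq windows (GRCh38.p14), and matches are in capitals.
*IFI6* (chr1:27672143-27672442, minus strand): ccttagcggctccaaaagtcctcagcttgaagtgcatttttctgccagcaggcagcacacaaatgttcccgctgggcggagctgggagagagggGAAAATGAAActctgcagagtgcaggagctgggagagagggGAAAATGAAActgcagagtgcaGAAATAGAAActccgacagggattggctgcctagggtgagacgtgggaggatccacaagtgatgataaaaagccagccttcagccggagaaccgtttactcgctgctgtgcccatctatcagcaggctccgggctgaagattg
*IFIT1* (chr10:89392373-89392672, plus strand): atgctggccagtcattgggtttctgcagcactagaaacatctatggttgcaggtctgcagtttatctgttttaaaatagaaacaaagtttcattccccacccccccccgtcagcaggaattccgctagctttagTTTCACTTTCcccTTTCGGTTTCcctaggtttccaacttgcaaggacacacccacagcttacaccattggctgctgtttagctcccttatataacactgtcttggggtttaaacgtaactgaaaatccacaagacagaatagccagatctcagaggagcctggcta
*IFI6* held 3 matches on its own strand, the first beginning 156 bases before the start, and *IFIT1* held 2 on the opposite strand, the first beginning 116 bases before it. A promoter was given for 31 of the 40 tested members of the list, and 23 of these genes held a match (74.2%), against 3.74% of all genes tested and 4.38% of all genes in the table. Counted by promoter, 65.9% of 41 held a match, against 3.57% of all promoters. Over all 28 called falls with a promoter, 3 genes held a match (10.7%). The list includes members that did not pass, so its share describes the list and not the falls. Both genes were chosen after their values were seen, and the matches do not show binding.

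A further group of falls consisted of genes of actin fibers and focal adhesions, by which cells grip their substrate. The list of 46 such genes was added after the values had been seen, and 38 were tested, of which 7 fell (against 0.258% of all genes) and none rose, with a median of −0.023. *VCL* (chr10:73995193-74121363), vinculin, which ties actin to adhesion sites, measured 148, 148 and 145 CPM with vehicle and 116, 115 and 117 CPM with AT-0174 (−0.34 ± 0.028, adjusted p = 3.7e-05). The groups stood far apart relative to the spread within each, and the call passed in all 14 alternative fits. *ZYX*, zyxin, of the same sites, measured 119, 117 and 115 CPM with vehicle and 98.0, 96.3 and 94.5 CPM with AT-0174 (−0.28 ± 0.035, adjusted p = 0.0016). *CNN2*, a calponin that binds actin, measured 128, 131 and 128 CPM with vehicle and 106, 104.4 and 110.0 CPM with AT-0174 (−0.27 ± 0.031, adjusted p = 7.3e-04). *PALLD*, palladin, a scaffold of actin bundles, measured 28.2, 28.9 and 28.4 CPM with vehicle and 21.2, 23.1 and 20.6 CPM with AT-0174 (−0.40 ± 0.048, adjusted p = 0.0012). Like *VCL*, these 3 genes passed in all 6 fits with a library left out. Over all 14 alternatives *CNN2* passed in each, while *ZYX* and *PALLD* passed in 13, with an adjusted p of up to 0.27 and 0.13.

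*FHL2*, an adaptor of focal adhesions that also acts in the nucleus, had the largest fall of the group at a low level and passed in 3 of 6 fits with a library left out, falling from 1.42, 1.27 and 1.09 to 0.414, 0.478 and 0.385 CPM (−1.56 ± 0.25, adjusted p = 0.010). *PDLIM5* (−0.20 ± 0.041, adjusted p = 0.042) and the cytoplasmic actin *ACTG1* (−0.20 ± 0.041, adjusted p = 0.046) fell by less. With a library left out, *PDLIM5* passed in 1 of 6 fits, with an adjusted p of up to 0.67 over the alternatives, and *ACTG1* in none. Outside the list, *MYO1E*, a myosin of membranes, fell from 27.4, 25.5 and 29.2 to 18.9, 19.8 and 21.9 CPM (−0.44 ± 0.062, adjusted p = 0.0037). Of the remaining members, *ACTB* (−0.056 ± 0.042, adjusted p = 0.77), *TLN1* (0.0046 ± 0.032, adjusted p = 0.99), *MYH9* (−0.040 ± 0.033, adjusted p = 0.80) and the transcription factor *SRF* (−0.065 ± 0.038, adjusted p = 0.67) did not pass. Also outside the list, *TMSB4X*, thymosin, which holds actin as monomers, rose, from 71.9, 80.0 and 74.7 to 95.9, 92.5 and 83.7 CPM (0.26 ± 0.051, adjusted p = 0.035), and passed in 2 of 6 fits with a library left out.

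The promoters of *CNN2* and *FHL2* are shown because, of the 7 called genes of the actin list, they are among the 3 with a match to the CArG box, the site of SRF. Matches on the windows described above are in capitals.
*CNN2* (chr19:1026358-1026657, plus strand): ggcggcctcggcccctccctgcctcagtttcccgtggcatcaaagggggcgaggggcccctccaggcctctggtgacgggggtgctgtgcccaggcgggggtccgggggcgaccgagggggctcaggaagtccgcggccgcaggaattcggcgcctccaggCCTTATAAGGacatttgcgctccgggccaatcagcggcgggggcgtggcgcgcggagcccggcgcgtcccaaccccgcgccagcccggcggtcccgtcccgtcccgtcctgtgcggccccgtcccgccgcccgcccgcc
*FHL2* (chr2:105399002-105399301, minus strand): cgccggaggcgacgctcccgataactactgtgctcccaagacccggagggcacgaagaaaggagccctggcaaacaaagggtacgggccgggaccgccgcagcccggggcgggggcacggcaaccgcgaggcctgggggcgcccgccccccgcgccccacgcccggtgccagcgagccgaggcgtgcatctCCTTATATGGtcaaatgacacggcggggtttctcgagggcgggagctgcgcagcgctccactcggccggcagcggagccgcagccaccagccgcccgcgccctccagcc
The match begins 89 bases before the start of *CNN2* and 59 before this start of *FHL2*. Of 4 starts of *FHL2*, 3 held a match, but the windows chr2:105438464-105438763 and chr2:105438480-105438779 overlap and hold the same site. A match was present in 3 of 7 genes (42.9%), against 1.42% of all genes tested. Over all 28 called falls with a promoter, 5 held a match (17.9%). The site was searched after the falls had been seen, and the letters do not show that SRF was bound.

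Genes of the mesenchymal state and its matrix ranged from absent to abundant in these cells. Of 45 members of the list, 25 were tested, 4 lay wholly higher and 5 wholly lower (against 7.75% and 7.66% of all genes), and the median was −0.0040. The other 20 did not pass the filter on low counts, among them *VIM*, with at most 2 counts in any suspended library, and *MMP1*, with none. *CDH2*, N-cadherin, measured 17.1, 17.1 and 18.7 CPM with vehicle and 13.997, 15.0 and 14.5 CPM with AT-0174 (−0.28 ± 0.053, adjusted p = 0.028). The groups stood apart, and the call passed in none of the 6 fits with a library left out. It was the only member of the list to pass. *ZEB1*, with 11 to 24 counts a library, and *MMP2*, with 2 to 17, were too low for a difference of moderate size to be detectable. *CDH1*, E-cadherin, did not pass (−0.034 ± 0.052, adjusted p = 0.92), nor did the matrix gene *FN1* (−0.41 ± 0.13, adjusted p = 0.28). Members with many counts included the matrix proteins *THBS1*, at 2116, 2168 and 1876 CPM with vehicle and 2374, 2192 and 2279.8 CPM with AT-0174 (0.15 ± 0.055, adjusted p = 0.37), and *TNC* (−0.17 ± 0.036, adjusted p = 0.060). Treated libraries lay wholly higher for *THBS1* and wholly lower for *TNC*, and neither passed. *IGFBP3*, a secreted binding protein (0.27 ± 0.096, adjusted p = 0.36), *TIMP1*, an inhibitor of matrix proteases (0.16 ± 0.039, adjusted p = 0.11), and the receptor *NRP1* (0.48 ± 0.15, adjusted p = 0.24) also lay wholly higher without passing.

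Several calls belong to none of these groups. *HEG1*, a membrane protein of cell junctions, measured 13.2, 12.9 and 12.1 CPM with vehicle and 8.20, 8.46 and 8.07 CPM with AT-0174 (−0.62 ± 0.070, adjusted p = 6.9e-04), against 24.6, 27.4 and 28.8 CPM in attached cells. *RANBP3L*, a nuclear export factor, measured 7.70, 6.78 and 6.81 CPM with vehicle and 2.96, 3.22 and 3.72 CPM with AT-0174 (−1.10 ± 0.14, adjusted p = 0.0021). *DMBT1*, a secreted scavenger receptor of epithelia, measured 77.6, 64.8 and 85.0 CPM with vehicle and 42.0, 37.9 and 47.7 CPM with AT-0174 (−0.83 ± 0.13, adjusted p = 0.0068). For these 3 genes every treated library lay below every vehicle library, and the calls passed in all 6 fits with a library left out. Over all 14 alternatives *HEG1* and *RANBP3L* passed in each and *DMBT1* in 13, with an adjusted p of up to 0.17.

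*NXPH3*, a secreted neurexin ligand, fell from 13.2, 12.8 and 12.6 to 8.22, 8.77 and 8.98 CPM (−0.57 ± 0.065, adjusted p = 7.3e-04), and *AKAP6*, an anchor of protein kinase A, from 35.9, 28.5 and 34.9 to 23.5, 18.2 and 24.7 CPM (−0.58 ± 0.12, adjusted p = 0.040). With a library left out, *AKAP6* passed in 1 of 6 fits. *PCDHA13* (−1.16 ± 0.24, adjusted p = 0.044) shares exons with the other alpha protocadherins, so that its reads are uncertain, and it passed in none of the 6 fits with a library left out (adjusted p of up to 0.94 over the alternatives). *PEG10*, an imprinted gene derived from a retrotransposon, is among the most abundant genes that fell, from 3848, 3669.5 and 3643 to 3014, 2887 and 3062 CPM (−0.32 ± 0.033, adjusted p = 3.5e-04). The signal recognition particle RNA *RN7SL2* also fell (−0.54 ± 0.070, adjusted p = 0.0020), but it has near-identical copies.

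Among the rises outside the NRF2-linked lists, *GDF15* and *PTHLH* encode secreted factors. *GDF15*, a stress-induced cytokine counted here with the targets of ATF4, measured 26.5, 24.2 and 25.4 CPM with vehicle and 40.2, 40.6 and 38.1 CPM with AT-0174 (0.64 ± 0.049, adjusted p = 1.8e-05), and 14.4, 15.1 and 15.9 CPM in attached cells. Of the 25 tested members of the list of ATF4 targets it was the only one to pass. *ATF4* itself (0.014 ± 0.037, adjusted p = 0.96), *TRIB3* (0.14 ± 0.035, adjusted p = 0.13) and *ASNS* (0.12 ± 0.051, adjusted p = 0.52) did not. That list did not hold *SLC7A11*, which rose and was counted with glutathione and amino acid transport. *PTHLH*, parathyroid hormone-like hormone, measured 7.65, 8.84 and 5.71 CPM with vehicle and 13.0, 10.8 and 11.7 CPM with AT-0174 (0.68 ± 0.13, adjusted p = 0.038), and it passed in 1 of 6 fits with a library left out. *S100A10*, which binds annexin at the cell surface, measured 29.2, 27.1 and 27.8 CPM with vehicle and 39.9, 37.9 and 40.9 CPM with AT-0174 (0.50 ± 0.045, adjusted p = 8.7e-05), against 55.9, 56.5 and 53.7 CPM in attached cells. *GPRC5B*, an orphan receptor, rose from 8.58, 6.98 and 7.47 to 12.1, 11.3 and 11.8 CPM (0.61 ± 0.081, adjusted p = 0.0023).

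Of 29 tested immediate-early genes, *KLF2* (0.35 ± 0.058, adjusted p = 0.012) and *DUSP6*, a phosphatase of the kinase ERK (0.21 ± 0.035, adjusted p = 0.013), rose, passing in 1 and 3 of 6 fits with a library left out. *FOS* (−0.018 ± 0.22, adjusted p = 0.99), *EGR1* (−0.0070 ± 0.14, adjusted p = 1.00) and *DUSP1* (−0.28 ± 0.14, adjusted p = 0.61) did not pass. A comparison of attached with suspended cells would share the suspended vehicle libraries with the comparison above, so attached levels are given side by side only. *ABCC3* measured 93.9, 96.4 and 103 CPM in attached cells, above both suspended groups, and *SLC7A11* measured 24.3, 23.8 and 23.2 CPM, below both. *NQO1*, at 759, 730.1 and 726 CPM, and *TXNRD1*, at 209, 210.1 and 197 CPM, were in attached cells near their level in suspended cells with vehicle.

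Most other lists showed no calls. No gene passed among 19 components and regulators of mTORC1, 20 aminoacyl-tRNA synthetases, 24 genes of cholesterol synthesis, 10 of fatty acid synthesis, 18 of the NF-κB pathway, 33 of the proteasome, 13 of autophagy and the lysosome, 19 of heat shock, 25 of the unfolded protein response, 33 of hypoxia and glycolysis, 5 metallothioneins and zinc genes, 15 targets of p53, 29 cell cycle genes or 16 luminal genes that were tested. *WARS1*, the tryptophanyl-tRNA synthetase, and *SLC7A5*, a tryptophan importer, had log2 fold changes of 0.041 ± 0.029, adjusted p = 0.75 and 0.031 ± 0.049, adjusted p = 0.92. *NFKBIA*, a direct target of NF-κB, had −0.22 ± 0.066, adjusted p = 0.22. The calcium-binding alarmin *S100A9* had 9 to 30 counts a library and did not pass (0.87 ± 0.39, adjusted p = 0.54), while *S100A8* and the chemokine *CCL2* were too low to be tested. The medians of these lists lay between −0.02 and 0.045. Without passing, 8 of the 20 aminoacyl-tRNA synthetases, 10 of the 33 hypoxia and glycolysis genes and 6 of the 33 proteasome genes lay wholly higher. None of these 3 lists had a member wholly lower (against 7.75% and 7.66% of all genes), and their medians were 0.030, 0.045 and 0.036. All 13 genes of the mitochondrial genome had positive values and none passed, with a median of 0.17, and the libraries of the 2 groups overlapped for each of them.

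**Figure D5:**
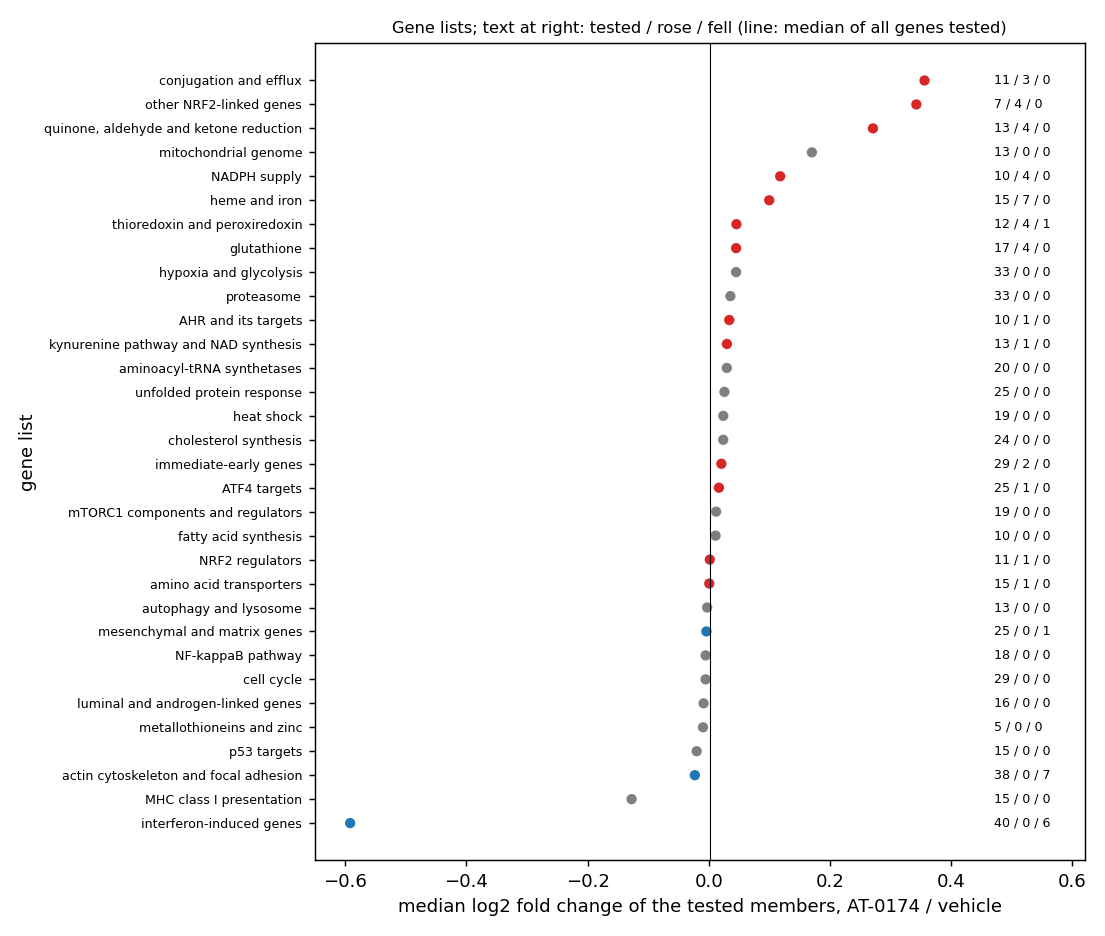
Median log2 fold change of AT-0174 over vehicle (horizontal axis) for the tested members of 32 gene lists (vertical axis), in red where more members rose than fell, blue where more fell, and grey otherwise, with the numbers tested, risen and fallen at the right. The interferon-induced list lies lowest at −0.59, the lists of conjugation and of other NRF2-linked genes lie highest at 0.36 and 0.34, and most medians are within 0.05 of 0.

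Individual transcripts were read from the authors' transcript estimates. Of 66693 tested, 23 differed (0.0345%), 18 higher and 5 lower. The 15 that were detected in both groups belong to 13 genes, each called at the gene level as well. For *NQO1*, 2 coding transcripts rose by nearly the same amount: ENST00000564043 by 0.78 ± 0.046 and ENST00000320623 by 0.77 ± 0.034 on the log2 scale (adjusted p = 0.0044 and 0.001, edgeR's quasi-likelihood test). The first made up 41.8%, 41.8% and 42.9% of the gene's TPM (counts scaled to transcript length and library size) with vehicle and 41.6%, 41.2% and 42.5% with AT-0174. These shares overlapped between the groups while the gene rose. *FTH1* transcripts ENST00000530019 and ENST00000534180 rose by 0.66 ± 0.041 and 0.70 ± 0.056 (adjusted p = 0.0044 and 0.011). The transcripts called for *HMOX1*, *SLC7A11*, *TRIM16L*, *GCLM*, *UGT1A6*, *GDF15*, *PIR*, *TXNRD1* and *TKT* rose and that of *PEG10* fell. Most of these calls depend on the setting. Of 9 alternative fits, those of *TXNRD1*, *PIR* and *TKT* passed in 1 and those of *GCLM* and *GDF15* in 2, against 8 for both *NQO1* transcripts. With the 6 suspended libraries alone 4 transcripts passed, and with a replicate block none did.

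The remaining 8 called transcripts were listed at 0 in all 3 libraries of a group. ENST00000368207 of *PTPRK*, a receptor phosphatase, had 350, 395 and 372 estimated counts with AT-0174 and 0 in each vehicle library. ENST00000581897 of *NBPF15* had 379, 268 and 347 with vehicle and 0 in each AT-0174 library, and ENST00000395156 of *STX1A*, a syntaxin, had 387, 255 and 313 with vehicle and 0 with AT-0174. At the gene level none of these 3 genes was called. *STX1A* reads appeared instead under ENST00000222812, with 69, 124 and 148 counts with vehicle and 432, 374 and 444 with AT-0174. Transcripts that differ by few bases share most of their reads, and the division of reads between them is an estimate whose error these files do not carry, so such switches are given as listed.

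The share of each gene's transcripts was tested for 11017 genes with edgeR, and 77 differed (0.699%), of which 3 were also called at the gene level. *VCL* and *DMBT1* are among these 3, and each has a transcript listed at 0 in every AT-0174 library. With vehicle, ENST00000624354 of *VCL* had 186, 83 and 136 counts and ENST00000368956 of *DMBT1* had 96, 931 and 500. In 45 of the 77 genes, a transcript held 3 counts or fewer in every library of a group. In every library of the other group it held 10 or more. Among all 66693 tested transcripts, 190 showed this pattern. The first count is of genes and the second of transcripts, so the shares cannot be compared. With at least 10 counts required in every library, 8 genes passed, and with limma-voom 9. Among the called genes with the smallest p were *NBPF15*, *COBLL1*, *SGSM2*, *PLCB3*, *PQBP1*, *PTPRK*, *SHFL* and *STX1A*. *NBPF15* and *STX1A* were called in 10 of 11 alternative fits, limma-voom among them, and each holds a transcript listed at 0 with AT-0174.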

How the data were processed

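RNA was sequenced from 9 libraries of MDA-MB-453 cells. The labels name a SMARTER library kit and the study's methods another kit, so the chemistry is uncertain. Per the labels and the study's methods, the authors trimmed reads with Trim Galore 0.6.7 (cutadapt 3.4), aligned them to GRCh38 (Ensembl 104) with STAR 2.7.9a and quantified them with Salmon 1.10.1. The deposited values are estimated counts and TPM per gene and transcript, of which the estimated counts were rounded and tested and the TPM used for transcript shares. Genes were filtered with filterByExpr, scaled by TMM and tested with edgeR 4.0.16 (R 4.3.3) over all 9 libraries with group as the only term and Benjamini-Hochberg adjustment; limma 3.58.1 and DESeq2 1.42.0 served as alternatives. CPM use TMM library sizes. Positions are from GENCODE 44. The scripts were tested on simulated data, where the gene-level test of transcript usage made too many false calls, so usage results are weak. Named genes were the 10 largest rises and 10 largest falls among called genes with a mean of at least 50 normalized counts, genes that moved at least 2-fold, up to 6 called members of each list, and the genes the study measured, while others were chosen after their values were seen. The members and lists were chosen with earlier results of these data known. P-values weigh the difference between the 2 groups against the spread among libraries within groups, estimated over all 9 libraries. Results for a few further genes are not reported here.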

Additional observations from a re-analysis of the deposited data

How the results depend on the processing

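Of the main results, the number of genes was 121 and moved to 239 with DESeq2, 499 without a filter on low counts, 35 with counts rebuilt from TPM, 9 with a 2-fold minimum and 52 at an adjusted p under 0.01, and it lay between 63 and 86 with a library left out. The 35 genes were all among the 121, as were 119 of the 239. With the 6 suspended libraries alone 125 genes passed, 108 of them among the 121. The number of transcripts was 23 and moved to 4 with the 6 suspended libraries alone, and lay between 12 and 26 with a library left out. The number of genes with altered transcript usage was 77 and moved to 9 with limma-voom, 8 with at least 10 counts in every library and 165 with the Simes test, an alternative chosen after seeing the data, and it lay between 100 and 131 with a library left out. No pairing of the libraries by replicate number was detected, as the deviations of same-numbered libraries correlated at 0.044, −0.003 and −0.012. With 3 libraries per group this cannot exclude a shared batch. With a replicate block the counts were 146 genes, 0 transcripts and 43 genes for usage. Beside the 0 transcripts from edgeR with the block, limma-voom without it called 16.

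Changes of direction occurred only among genes that were not called. With counts rebuilt from TPM, the log2 fold change was −0.0722 for *KMO*, 0.1736 for *AHR*, −0.06845 for *MMP2* and 0.01569 for *NFE2L2*. With a library left out, values lay between −0.1711 and 0.103 for *KYNU*, −0.1615 and 0.3006 for *ZEB1*, −0.03651 and 0.01448 for *NFE2L2*, −0.01323 and 0.01567 for *KEAP1*, and −0.06356 and 0.05324 for *BACH1*. With at least 10 counts in every library *KEAP1* was at −0.00294, and *BACH1* was at 0.00093 with limma-voom and 0.00263 without a filter. The causes were not tested.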
